A study of Mus musculus with 24 samples.

Results

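The replication-dependent histone genes were followed in surface RNA of 5 mouse blood cell types and in total RNA of mouse peripheral blood mononuclear cells (PBMCs). In the PBMC files the members were the symbols starting Hist1h, Hist2h, Hist3h or Hist4h that reached 10 expected counts in at least 3 of 9 libraries. This gave 61 of 70 such names among 55335 genes. In the surface tables the members were the protein-coding rows whose gene name starts with H1f, H2ac, H2bc, H3c or H4c. This gave 73 transcripts of 69 genes among 102001 transcripts that all 5 tables list. The gene identifiers matched 58 genes between the 2 sets, so that Hist1h2ap of the PBMC files is H2ac24 of the surface tables and Hist2h3b is H3c13. Among the 9 names under the minimum, Hist1h2af and Hist2h2ab came closest, with 2 libraries each at or above it. Hist1h2aj, Hist1h2ao and Hist1h4b lay just inside, with 3 libraries each. The prefix H1f also takes in H1f0, H1f8 and H1f10, linker histones that are not coupled to replication and for which no PBMC name exists under the rule.

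A nucleosome winds DNA around the core histones H2A, H2B, H3 and H4, and the linker histone H1 binds where the DNA enters and leaves it. Dividing cells make most of this protein in S phase from many short, mostly intronless genes. Their mRNAs are the main animal mRNAs without a poly(A) tail: they end in a conserved stem-loop bound by the stem-loop binding protein SLBP, and the U7 snRNP directs the cut behind it. Outside S phase these mRNAs are degraded quickly, so their abundance is widely read as a mark of dividing cells.

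Surface RNA came from the AMOUR method, in which fixed, intact cells on beads are annealed with random T7 primers and the RNA reached on their outer face is amplified in place by T7 polymerase. The study states that neither AMOUR nor any other present method can exclude all RNA from inside cells. In its test on a human cell line, the histone mRNAs H3C1 and H4C3 were higher in cell lysate than in AMOUR of intact cells. Surface RNA therefore means here the RNA read by this method. B cells, CD8 T cells and NK cells were taken from spleen, and lineage-depleted stem and progenitor cells (HSPCs) and monocytes from bone marrow, all of C57BL/6 mice labelled WT, with 3 libraries of each type. The monocyte libraries were sequenced on a DNB machine (T7, PE100) and the other 12 on a HiSeq (PE150), so platform and cell type cannot be told apart for monocytes. The PBMC libraries came from blood of mice labelled wild type in genotype, and their treatment labels, ct, WT and Y, with 3 libraries each, are not explained. The study calls its surface replicates biological, but no label says that libraries of a group came from separate animals, and for PBMCs neither source says so. P-values therefore measure the spread between these libraries, which may be technical.

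The stem-loop was the first thing to look for in the members' annotated transcripts. In the GENCODE M21 transcripts (GRCm38), a 16-base stem-loop of the histone form was present in 46 of the 70 genes named by the PBMC rule, 65.7%, against 109 of all 141767 transcripts, 0.0769%. The former share counts genes and the latter transcripts. Of 80 genes with such a stem-loop, 34 (42.5%) are named by no rule used here. By family it was found in 4 of 6 H1 genes, 11 of 20 H2A genes, 10 of 19 H2B genes, 9 of 12 H3 genes and 12 of 13 H4 genes. Where it is missing the annotated transcript may stop at the coding end, as in H2bc15, H3c10, H3c11 and H3c13. Hist1h2aj, Hist1h2al and Hist3h2bb-ps, also without it, are annotated there as pseudogenes and are counted among the genes named by the rule. Hist1h2aj and Hist1h2al are PBMC members, and Hist3h2bb-ps, as H2bc26-ps, is a surface member. The windows of 7 members with values below are printed with the stem-loop in capitals and its flanks in lower case, 5′ to 3′. They were chosen so that each family is shown.
H1f2 (Hist1h1c): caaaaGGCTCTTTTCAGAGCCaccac
H2ac24 (Hist1h2ap): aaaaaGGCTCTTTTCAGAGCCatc
H2bc8 (Hist1h2bg): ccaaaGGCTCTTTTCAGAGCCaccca
H3c2 (Hist1h3b): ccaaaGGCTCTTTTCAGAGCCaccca
H2bc12 (Hist1h2bk): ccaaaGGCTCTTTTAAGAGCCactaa
H4c6 (Hist1h4f): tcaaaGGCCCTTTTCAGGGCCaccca
H4c17 (Hist1h4m): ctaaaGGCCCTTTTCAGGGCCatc
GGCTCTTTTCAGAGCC was the form of 3 H1, 10 H2A, 8 H2B and 5 H3 genes, and of no H4 gene. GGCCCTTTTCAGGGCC was the form of 7 H4 genes and of no other family. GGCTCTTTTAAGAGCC was found in 1 H1, 2 H2B and 3 H3 genes.

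Promoters were read from RefSeq (GRCm38.p6), from 250 bases before to 50 after each start site, on both strands. The octamer ATTTGCAT, the site of the POU factor Oct-1 that drives H2B genes in S phase, was present in 7 of 14 H2B promoters and 6 of 16 H2A promoters, and in 1.74% of all 32851 promoters. Some H2A and H2B genes lie back to back, as H2ac8 and H2bc8 do, so the same octamer can be counted in both families. How often this happened was not determined. None of 9 H1, 10 H3 and 11 H4 promoters held these letters. Promoters were picked by the names of the surface members, which for H1 include H1f0, H1f8 and H1f10, not coupled to replication. CCAAT, the letters bound by NF-Y, was present in 7 of 9 H1, all 16 H2A, all 14 H2B and all 10 H3 promoters and in 3 of 11 H4 promoters, against 37.4% of all promoters. TATAAA was present in 4 of 9 H1, 11 of 16 H2A, 7 of 14 H2B, 4 of 10 H3 and 8 of 11 H4 promoters, against 13.6% of all. The stretches around the octamer of 3 H2B members with values below are shown with the octamer in capitals.
H2bc8, chr13:23571311-23571399, + strand: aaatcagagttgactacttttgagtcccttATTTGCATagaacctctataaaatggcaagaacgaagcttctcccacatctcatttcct
H2bc3, chr13:23746614-23746713, + strand: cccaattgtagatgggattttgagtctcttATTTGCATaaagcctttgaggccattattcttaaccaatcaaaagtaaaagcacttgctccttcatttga
H2bc12, chr13:22035761-22035820, + strand: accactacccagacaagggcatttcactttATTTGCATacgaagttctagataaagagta
The octamer began 59, 90 and 30 bases before the start site in these genes. A match is a stretch of letters and was not tested as a binding site.

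The members lie in clusters. Of the protein-coding genes, 54 lie on chromosome 13 (GRCm38 positions 21715763 to 23934851), 10 on chromosome 3 (96219865 to 96270132), 2 on chromosome 11 and 1 on chromosome 6. Many copies within the H2A, H2B, H3 and H4 families are close to identical, and this bears on values of single genes. Of all stretches of 31 bases in a gene's transcripts, the median share found in no other gene was 96.3% for H1, 52.1% for H4, 43.7% for H2B, 37.0% for H3 and 19.2% for H2A. For H3c10 (Hist1h3h) it was 5.80%, for H2ac24 (Hist1h2ap) 6.60%, for H3c11 (Hist1h3i) 6.80% and for H4c17 (Hist1h4m) 8.30%. For Hist2h2aa2 it was 0%, and this gene was given 0 counts in all 9 PBMC libraries while its near copy Hist2h2aa1 was the most abundant member per length. Single values of such genes rest on how the authors' programs shared reads between copies and are uncertain, and family sums depend less on it.

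On the surface, histone mRNA took a larger share of protein-coding RNA in HSPCs, monocytes and NK cells than in B and T cells. The 73 transcripts summed to 864, 648 and 678 TPM (transcripts per 1000000) in B cells, while the T cell libraries reached 298, 491 and 612. NK cells reached 1593, 1908 and 2881 TPM, HSPCs 1887, 3461 and 2839, and monocytes 16449, 16022 and 17735. On this scale the monocyte libraries stood far above all others, while HSPCs overlapped NK cells and B cells lay above T cells.

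TPM counts all RNA, and protein-coding RNA as a whole made up 16.8% to 18.1% of TPM in monocytes but 0.644% to 2.96% in the other 4 types. Each library was therefore also rescaled so that its protein-coding transcripts sum to 1000000, here called the protein-coding scale. As a share of protein-coding TPM the members made up 16.5%, 18.0% and 17.4% in HSPCs (17.3% ± 0.716, SD, n = 3), more than in any other library. NK cells had 10.7%, 7.66% and 9.74%, and monocytes 9.33%, 9.51% and 9.81%. B cells had 3.00%, 2.77% and 3.39%, and T cells 4.63%, 3.24% and 5.09%. The order of the means was thus HSPC, then monocytes and NK cells, which overlapped, then T and B cells, which overlapped each other. With 3 libraries against 3, an exact permutation test cannot go below p = 0.10, so no single pair of types can pass the threshold in it.

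**Figure D1:**
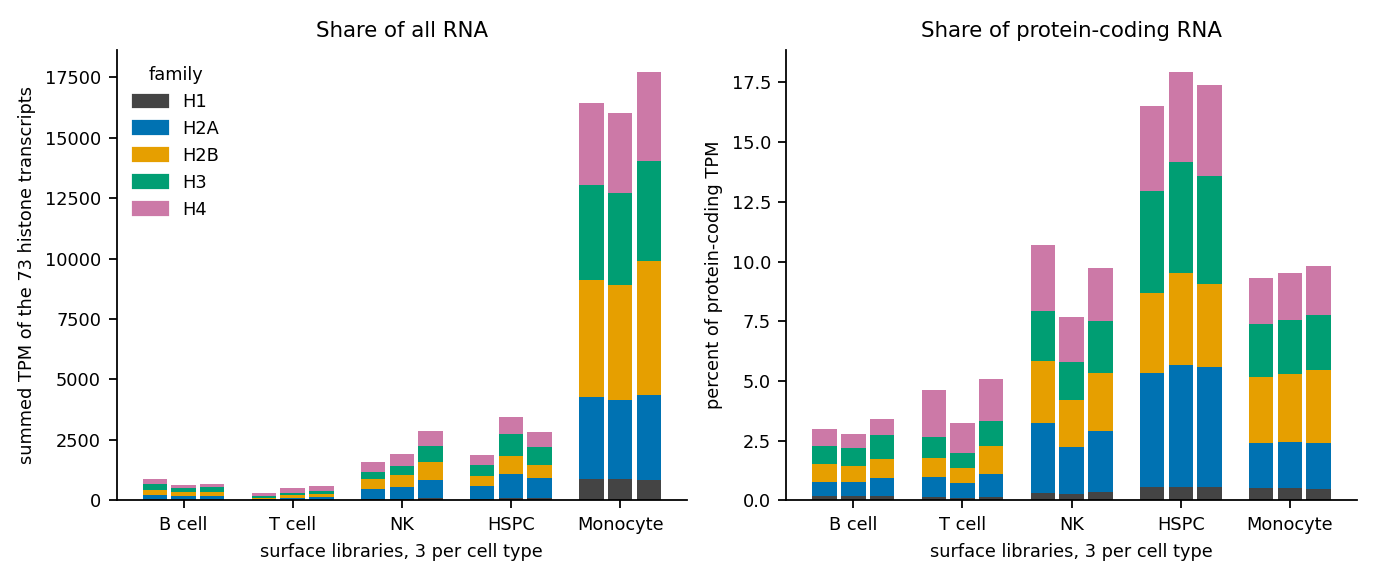
Summed TPM of the 73 histone transcripts (left) and their percent of protein-coding TPM (right) in each of the 15 surface libraries, with 1 stacked bar per library and colours for the 5 families. Monocytes stand apart on the left at 16022 to 17735 TPM, and HSPCs on the right at 16.5% to 18.0%.

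Members were among the most abundant protein-coding transcripts on the surface. Of 44323 protein-coding transcripts ranked by mean TPM, the top 100 held 32 members in HSPCs, where H2ac24, H3c10 and H3c13 ranked 2, 3 and 4. In monocytes it held 34 members, with H2bc15, H4c6 and H3c10 at 4, 5 and 6, and in NK cells 23, with H2bc15 at 12. In T cells it held 8, led by H4c17 at 29, and in B cells 4, led by H4c8 at 88. Of the 66 members that passed the filter on low values, more than 10 TPM on the protein-coding scale in at least 3 libraries, 54 had their highest mean in HSPCs, 10 in monocytes, 1 in NK cells and 1 in B cells. The 54 include both rows of H1f10, which carry the same values and passed only with the HSPC libraries, and without them the count in HSPCs is 52 of 64. The lowest mean was that of B cells for 46 and that of T cells for 19. The mean levels of the 69 genes had nearly the same order in all types, with Spearman coefficients of 0.86 to 0.97 between pairs of types. These are given as a description, since transcript sequence and read sharing are common to all libraries.

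The families took unlike shares of the histone RNA. T cells gave 42.5%, 38.7% and 34.9% of it to H4 (38.7% ± 3.81, SD, n = 3), against means of 20.8% to 24.4% in the other types, and the T cell libraries lay above all others. H2B was highest in monocytes at 30.2% ± 0.855 (SD, n = 3) and H2A in HSPCs at 28.7% ± 0.334 (SD, n = 3). H1 made up 3.01% to 6.05% on average. H3 ranged from 19.8% in T cells to 27.4% in B cells.

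**Figure D2:**
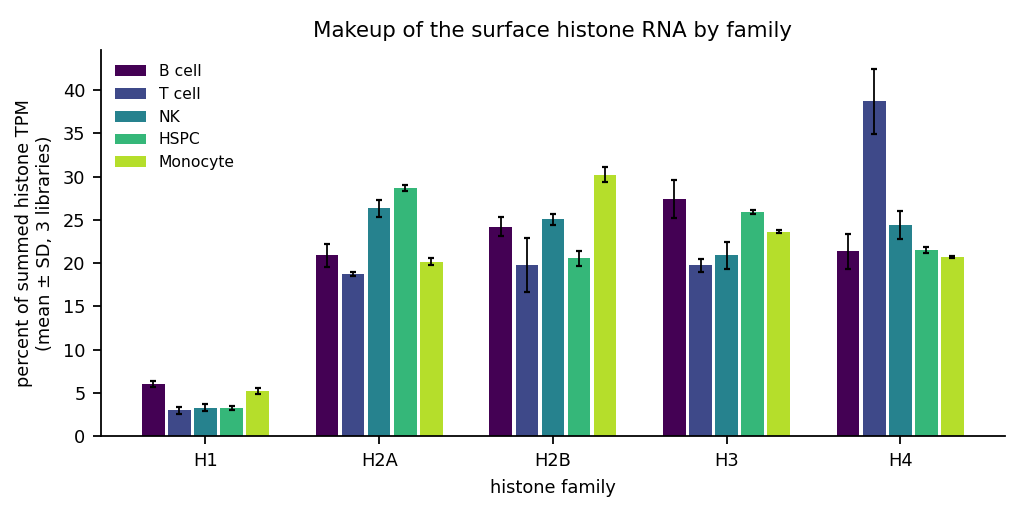
Percent of the summed histone TPM in each family, as bars for the mean of 3 libraries with error bars of 1 SD, for the 5 surface cell types. The H4 bar of T cells, 38.7%, stands above the other H4 bars.

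The comparison within 1 sequencing platform set HSPCs against the spleen lymphocytes. In it cell type and tissue, bone marrow against spleen, cannot be told apart. The filter and the estimate of the spread used all surface libraries, those of monocytes included. In TPM limma, fitted over 3836 transcripts on log2(TPM + 1), called 53 of 62 tested members higher in HSPCs and none lower (57 had an unadjusted p below 0.05). Of all transcripts tested 12.5% were called higher and 24.9% lower. The members' median log2 difference was 1.36, against -0.09 over all transcripts. Relative to protein-coding RNA 62 of 66 members were called higher and none lower, against 19.2% and 12.8% of 17205 transcripts, with medians of 1.80 and 0.21. The 11 remaining members in TPM and 7 on the other scale were too low to be tested. Of the 66, the 2 rows of H1f10 passed the filter only with the HSPC libraries, and of the other 64 limma called 60 higher, with a median of 1.77. In TPM 14 of the 62 passed only with the monocyte libraries. Of the other 48 limma called 43 higher and 0 lower, with a median of 1.56.

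All families took part on the protein-coding scale. Each of 11 H3 and 13 H4 transcripts was called higher in HSPCs, with median log2 differences of 2.19 and 1.47. The 8 H1 rows were also called, with a median of 2.30, but 3 of them are H1f0 and the 2 rows of H1f10. The 5 H1 genes coupled to replication were all called, with differences of 0.78 (H1f2) to 2.51 (H1f5) and a median of 1.37. Of 16 H2A and 18 H2B transcripts 15 each were called, with medians of 2.27 and 1.62. All 3 HSPC libraries lay above all 9 lymphocyte libraries for 48 of the 66 members, against 13.2% of all transcripts tested, and below for 0 (6.27%). Without the 2 rows of H1f10 it was 46 of 64. In TPM this held for 1 of 62, against 2.76%, and the HSPC sums there ran from 1887 to 3461.

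**Figure D3:**
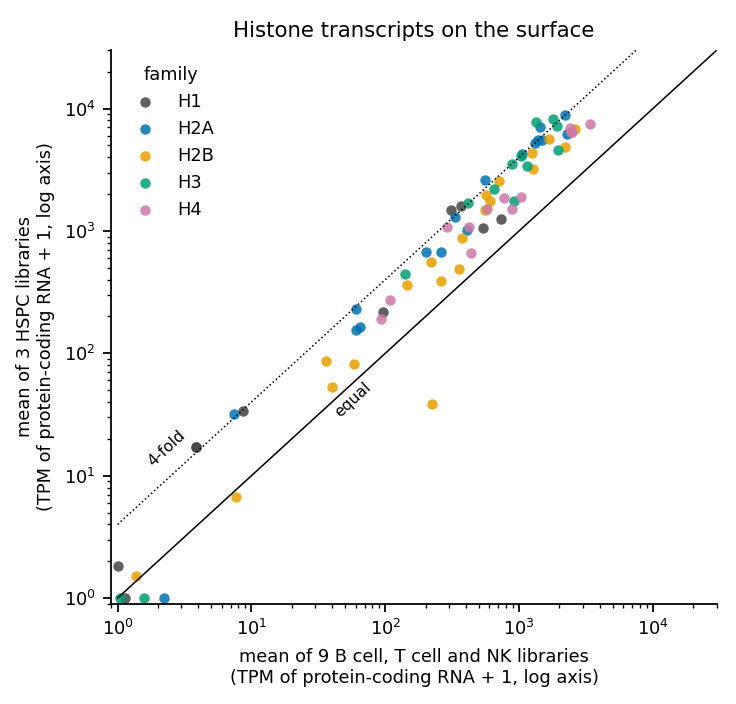
Mean of the 3 HSPC libraries against the mean of the 9 B cell, T cell and NK libraries for each of the 73 members (protein-coding scale plus 1, both axes log), with colours for the families and lines for equal levels and for 4-fold. Nearly all members lie above the line of equal levels, and H2bc1 is the point far below it.

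H3c13 (Hist2h3b, chr3:96268654-96269141), a gene of the H3 protein, had the largest called difference in TPM. Its level on the protein-coding scale was 7739, 7625 and 8064 in HSPCs. B cells held 1017, 1360 and 1988, T cells 466, 432 and 892, NK cells 1568, 1684 and 2561, and monocytes 2961, 3249 and 3011. The HSPC libraries lay above all others, and T cells were lowest without overlapping any other type. Against the 3 lymphocyte types the log2 difference was 2.77 (SE 0.237, limma adjusted p = 2.4e-06), and on the TPM scale 2.46 (SE 0.359, limma adjusted p = 4.79e-05).

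H2ac24 (Hist1h2ap), an H2A gene, reached 7892, 9181 and 9323 in HSPCs on the protein-coding scale. B cells held 771, 788 and 1023, T cells 1502, 744 and 1381, NK cells 5876, 2980 and 4731, and monocytes 2235, 2198 and 2525. HSPCs were highest, NK cells came next, and B and T cells overlapped. The log2 difference between HSPCs and lymphocytes was 2.43 (SE 0.225, limma adjusted p = 4.71e-06).

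H2ac12 (Hist1h2ah) had the largest called difference on the protein-coding scale, with 2372, 2788 and 2693 in HSPCs, 111 to 363 in B and T cells and 761 to 1602 in NK cells. Its log2 difference was 2.88 (SE 0.285, limma adjusted p = 7.98e-06). H2ac10 (Hist1h2af), under the count minimum in PBMCs, read 7175, 7061 and 6950 in HSPCs and at most 3272 in any lymphocyte library, a log2 difference of 2.71 (SE 0.269). For both genes the HSPC libraries did not overlap the lymphocytes. Only 8.80% of the stretches of H2ac12 and 14.1% of those of H2ac10 are in no other gene, so their single values are uncertain.

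H3c10 (Hist1h3h) gave 8161, 8111 and 8150 in HSPCs on the protein-coding scale. B cells held 969, 1489 and 2154, T cells 1158, 978 and 1513, NK cells 2421, 2135 and 3422, and monocytes 3751, 3925 and 3650. HSPCs were again highest, by 2.30 on the log2 scale over the lymphocytes (SE 0.213, limma adjusted p = 4.74e-06), and monocytes second, while B and T cells overlapped.

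H1f5 (Hist1h1b), a linker histone of dividing cells and with 96.1% of its stretches in no other gene, is read nearly free of copies. Its level was 1556, 1448 and 1451 in HSPCs and 1598, 1783 and 1456 in monocytes. B cells held 241, 171 and 219, T cells 132, 125 and 197, and NK cells 547, 524 and 643. HSPCs and monocytes overlapped, and both stood above NK cells and, further below, B and T cells. HSPCs exceeded the lymphocytes by 2.51 on the log2 scale (SE 0.144, limma adjusted p = 9.21e-08) and by 1.99 on the TPM scale (SE 0.283, limma adjusted p = 3.83e-05).

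The H4 genes H4c17 (Hist1h4m) and H4c6 (Hist1h4f) were abundant in T cells too. H4c17 read 6012, 3037 and 4057 in T cells and 6446, 3673 and 3717 in NK cells. HSPCs held 6931, 8674 and 6995, monocytes 3445, 3361 and 3305, and B cells 1553, 1116 and 1108. T cells overlapped NK cells and monocytes, and B cells lay below all of them. H4c6 read 3055, 1683 and 3155 in T cells, against 6140, 6658 and 6313 in HSPCs, and B cells held 716, 498 and 686.

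Of the other members among the 10 highest on the surface, H2ac18 (Hist2h2aa1) read 6138, 6297 and 6132 in HSPCs and 1156 to 4224 in lymphocytes, 1.57 higher on the log2 scale (SE 0.13). H3c11 (Hist1h3i) read 7242, 7497 and 6886 against 1008 to 3677, 2.02 higher (SE 0.158), and H2bc11 (Hist1h2bj) 5469, 5849 and 5707 against 459 to 3897, 2.16 higher (SE 0.26). For these 3 the HSPC libraries stood above every lymphocyte library. H2bc8, whose promoter is printed above, read 4334, 5267 and 4991 in HSPCs and 3222 to 4502 in NK cells, which overlapped, and 817 to 1822 in B and T cells. H2bc3 read 2740, 3626 and 3311 in HSPCs and overlapped both NK cells, at 1755 to 2756, and monocytes, at 3401 to 3702. The smallest called differences in TPM were those of H1f0, H4c16 and H1f3, at 0.38 (SE 0.0899), 0.60 (SE 0.185) and 0.68 (SE 0.2).

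H2bc15 (Hist1h2bn), with the highest mean TPM of all members over the 15 libraries, shows how much the scale matters. In TPM it read 900, 857 and 959 in monocytes and 74.3, 150 and 99.1 in HSPCs, and on the protein-coding scale 5105, 5090 and 5304 in monocytes and 6507, 7767 and 6067 in HSPCs. Monocytes lay far above every HSPC library on the first scale and below every one on the second. On the protein-coding scale H4c17 had the highest mean over the 15 libraries, at 4229 against 3949 for H2bc15.

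Some members did not follow the pattern. H2bc1 (Hist1h2ba), an H2B variant made mainly in testis, read 22.4, 555 and 1385 in B cells on the protein-coding scale and at most 52.0 in any other library. The B cell libraries spread widely and the lowest overlapped the other types, and limma gave a log2 difference of 4.88 against the other 4 types (SE 1.27, adjusted p = 0.01). Without B cell replicate 2 or 3 it was not called. H2ac23 (Hist1h2ao) read 254, 245 and 232 in monocytes and 0 to 54.1 in all others, 5.72 higher on the log2 scale (SE 1.18, limma adjusted p = 0.00167), and only 6.20% of its stretches are in no other gene. H2bc21 (Hist2h2be), chosen here after its values were seen, stayed between 2.6 and 13.1 in all 15 libraries.

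Each cell type was then set against the other 4. Relative to protein-coding RNA 59 of 66 members were called higher in HSPCs (15.4% of all transcripts) and none lower (12.8%), with a median log2 difference of 1.48 against 0.14 over all. Without the 2 rows of H1f10 it was 57 of 64, with a median of 1.41. In TPM 14 of 62 were called higher (1.43%), led by H2ac10, H2ac12 and H3c13 at 1.44, 1.36 and 1.31, and 5 lower (78.3%), with a median of 0.30 against -0.94. The count of 14 fell to 7 without HSPC replicate 2 and to 9 without HSPC replicate 3. The 5 lower calls became 1 without monocyte replicate 2 and 0 without monocyte replicate 1 or 3. These 5, H2ac23, H1f0, H2bc27, H2bc22 and H2bc6, all had differences above 0 on the protein-coding scale. In TPM 14 of the 62 passed the filter only with the monocyte libraries, which are on the other side of this contrast, and the first 4 of these 5 are among them. Of the other 48 members 14 were called higher and 1, H2bc6, lower, with a median of 0.45.

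B cells were lower. In TPM 59 of 62 members were called lower (56.5% of all) and none higher (11.1%), with a median of -1.74 against -0.61. Of the 48 that passed without the monocyte libraries 46 were. On the protein-coding scale 60 of 66 were called lower (20.4%) and 1, H2bc1, higher (13.7%), with a median of -1.63 against -0.11. The largest differences in TPM were those of H4c1, H4c18 and H3c15, which on the protein-coding scale were -3.66 (SE 0.383), -3.41 (SE 0.375) and -3.09 (SE 0.232), each with a limma adjusted p of 1.96e-05 or less. H4c18 read 359, 92.6 and 58.8 in B cells and at least 1047 in every other library. The smallest called differences in TPM were those of H3c13, H1f3 and H2bc6. On the protein-coding scale they were -0.68 (SE 0.23), -0.44 (SE 0.156) and -0.42 (SE 0.14).

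T cells were lower as well, with fewer calls among H4 genes on the protein-coding scale. In TPM all 62 tested members were called lower, where 80.1% of all transcripts were, and none higher (10.3%), with medians of -2.38 and -1.25. The 14 that passed only with the monocyte libraries are among them, and the other 48 had a median of -2.70. The largest differences, of H3c13, H2ac10 and H1f5, were -3.81, -3.58 and -3.38, and -2.32, -2.11 and -2.29 on the protein-coding scale. The smallest, of H2ac21, H1f0 and H2bc27, were -1.12, -1.15 and -1.15, and that of H2ac21 was 0.25 on the protein-coding scale. Relative to protein-coding RNA 48 of 66 were called lower (25.4%) and none higher (10.3%), with 51 at an unadjusted p below 0.05 and a median of -1.25 against -0.37. Without the 2 rows of H1f10 it was 46 of 64. H1, H2A, H2B and H3 transcripts were called lower in 8 of 8, 13 of 16, 15 of 18 and 9 of 11 cases, with the rows of H1f10 among the 8. Of 13 H4 transcripts 3 were, with a median of -0.09, and H4c17 and H4c6 differed by 0.29 (SE 0.21) and -0.14 (SE 0.195), neither called. Differences between families were not tested.

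NK cells lay between. In TPM no member was called higher (8.11%) and 4 of 62 lower (48.2%), namely H2ac23, H1f0, H2bc27 and H4c16, with a median of 0.02 against -0.49. These 4 all passed the filter only with the monocyte libraries, and of the other 48 members limma called none in either direction (1 had an unadjusted p below 0.05), with a median of 0.08. The count of 4 rose to 10 without NK replicate 3 and fell to 0 without any one monocyte library. Relative to protein-coding RNA 18 of 66 were called higher (7.84%) and none lower (4.46%), with a median of 0.47 against 0.06. H2ac24 was 1.04 higher (SE 0.218, limma adjusted p = 0.00753) and H2bc15 0.72 higher (SE 0.158, limma adjusted p = 0.0102). The count of 18 was 2 without NK replicate 1, 6 without NK replicate 3 and 11 without HSPC replicate 3. All NK libraries lay above all B and T cell libraries for 47 of the 66 members, against 12.2% of all transcripts, and below for 0 (2.91%).

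Monocyte values depended on the scale. In TPM all 62 members were called higher, where 87.5% of all transcripts were, and none lower (5.21%), with a median of 3.84 against 3.17. The 14 that passed the filter only with these libraries, H2ac23 among them, had to be higher there. The other 48 were all called higher, with a median of 3.91. H2ac23, H2bc18 and H1f5 were 5.20, 5.17 and 5.06 higher, and H4c14, H2ac6 and H4c9, with the smallest differences, 2.75, 2.91 and 2.97. On the protein-coding scale 40 of 66 were called higher (28.7%) and 2 lower (17.1%), with a median of 0.74 against 0.24. H2bc18 (Hist2h2bb) was 1.97 higher (SE 0.157, limma adjusted p = 8.66e-07), H1f5 was 2.00 higher (SE 0.139), and H4c14 was at -0.44 (SE 0.207), not called. H2bc18 read 2639, 2742 and 2796 in monocytes, 2069, 1946 and 1830 in HSPCs and at most 1170 in lymphocytes. H1f0, which accumulates in differentiated cells, read 75.2, 77.4 and 93.2 in monocytes and 27.3 to 36.4 in HSPCs. The 2 lower rows are H1f10, which passed only with the HSPC libraries, and of the other 64 members 40 were called higher and none lower, with a median of 0.76. The count of 2 fell to 0 or 1 without any single library other than NK replicate 1, where it stayed 2, and T cell replicate 2, where it rose to 5. Set against HSPCs alone, monocyte libraries were all below for 45 of 66 members (21% of all) and all above for 4 (31.5%), while in TPM they were above for 62 of 62 (92.8%) and below for 0 (1.23%). Without the members that passed only with 1 of these groups, the counts were 43 of 64 below on the first scale and 48 of 48 above in TPM.

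Markers of each cell type were highest in their own libraries on the protein-coding scale. Markers of other cells were present in several types. In T cells monocyte markers summed to 993 to 1345, against 625 to 872 in NK cells and 963 to 1501 in HSPCs, and NK markers to 821 to 912. Summed erythroid markers were at 2861 to 7472 in NK cells and 4287 to 4889 in HSPCs, against 44.4 to 1507 in B and T cells and 166 to 302 in monocytes. Summed neutrophil markers were at 976 to 2151 in NK cells, 965 to 2795 in HSPCs and 7859 to 8795 in monocytes, and at 0 to 53.3 in B and T cells. Summed platelet markers were at 1420 to 1502 in HSPCs, 456 to 654 in monocytes, 230 to 271 in NK cells and 4.93 to 17.1 in B and T cells, and all 5 of their transcripts were called higher in HSPCs than in lymphocytes. The 5 HSPC markers summed to 7179 to 9635 in HSPCs, 2515 to 4241 in monocytes, 558 to 647 in NK cells and 2.36 to 135 in B and T cells. The part of such cells in the histone levels was not tested. In bulk samples, fewer cells of a type and less RNA per cell cannot be told apart.

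Genes of DNA replication and division were set beside the members on the same scale and in the same contrast of HSPCs with lymphocytes. Of 40 transcripts of 25 such genes, 32 were called higher in HSPCs and none lower, with a median of 2.09. Tyms-208, of thymidylate synthase, was 4.32 higher (SE 1.10, limma adjusted p = 0.00881), Cdk1-202 3.71 higher (SE 0.671) and cyclin A2 3.64 higher (SE 0.589). Their summed level was 3857 to 3966 in HSPCs, 3905 to 4348 in monocytes, 1955 to 2616 in NK cells, 702 to 884 in B cells and 599 to 1098 in T cells. HSPCs, monocytes and NK cells thus stood above B and T cells in these genes too, and HSPCs and monocytes overlapped.

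Over all 17205 transcripts 19.2% were called higher and 12.8% lower in this contrast. Of 13 transcripts of histone chaperones 8 were called higher in HSPCs and none lower, with Chaf1b at 2.58 (SE 0.578) and Chaf1a at 2.56 (SE 0.299), the subunits of the factor that deposits H3 and H4 behind the replication fork. Of 22 transcripts for histone mRNA processing and transcription 6 were called higher and 1 lower, with a median of 0.48 against 0.21 over all, shares near those of all transcripts. Slbp-201, of the stem-loop binding protein, was 1.29 higher (SE 0.264, limma adjusted p = 0.00223) and Sympk, of the cleavage complex, 1.26 higher (SE 0.234). Hinfp, an activator of H4 genes, was 1.83 lower, as a log2 difference of -1.83 (SE 0.610, limma adjusted p = 0.0360). Of 21 transcripts of replication-independent variants 12 were called higher and none lower, with a median of 1.02, and H2az2-201, of an H2A.Z protein, was 2.66 higher. The list includes H1f0 and H1f10, which the members also do. The 2 rows of H1f10 are among the 12 called higher. They passed the filter only with the HSPC libraries and so had to be higher there.

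In PBMC total RNA the members were a minor part of the libraries. Depth ran from 4686387 to 9055761 expected counts per library after rounding, of which 50.5% to 57.0% fell on a single ribosomal RNA gene, and 1940 to 4689 counts were those of members. The most abundant member per length was Hist2h2aa1, at 20.2 to 30.7 TPM of the authors' RSEM tables over the 9 libraries. Hist1h4n followed at 13.1 to 18.6 TPM, then Hist1h1c, a linker histone also made outside S phase, at 9.45 to 13.1 TPM. Hist1h3i and Hist2h2bb led the H3 and H2B families, at 5.05 to 12.2 and 5.19 to 10.5 TPM. Member levels in PBMCs and on the surface had Spearman coefficients of 0.55 (HSPCs) to 0.63 (B cells) over 58 genes, given as a description.

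The summed level of the 61 members was 420, 451 and 444 CPM (counts per 1000000, scaled by TMM) in ct, 511, 472 and 562 in WT, against 424, 424 and 391 in Y. Every WT library lay above every ct and Y library, and ct and Y overlapped. In summed RSEM TPM the values were 230, 221 and 206 in ct, 256, 282 and 264 in WT, against 176, 193 and 170 in Y, so that on that scale Y also lay below ct. The 11 H3 genes summed to 67.2, 76.6 and 73.4 CPM in ct, 102, 87.8 and 106 in WT, against 70.05, 64.9 and 62.6 in Y, with WT above all others. The 16 H2A genes had WT above all others too, at 87.5 to 97.2 CPM in ct, 99.2 to 122 in WT and 77.4 to 93.4 in Y. They include the annotated pseudogenes Hist1h2aj and Hist1h2al. H2B and H4 summed to 78.7 to 92.2 and 95.0 to 116 CPM in WT, above every Y library in both, while ct, at 67.1 to 78.8 and 94.0 to 98.9, overlapped WT. H1 summed to 105, 107 and 103 CPM in ct, 103, 112 and 126 in WT, against 106, 105 and 107 in Y, and the groups overlapped.

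The 3 contrasts share libraries, so their values are given side by side. For WT against ct, edgeR fitted to 11635 genes called 2 of 61 members higher (0.765% of all genes) and none lower (1.6%), and 18 had an unadjusted p below 0.05. The members' median log2 fold change was 0.27, against 0.00 over all genes, and 52 of 61 lay above 0. For Y against WT, edgeR called 5 lower (0.817%) and none higher (0.438%), with 24 at an unadjusted p below 0.05, a median of -0.46 and 7 above 0. For Y against ct, edgeR called none higher (0.266%) or lower (0.438%), with 6 at an unadjusted p below 0.05, a median of -0.16 and 15 above 0. Over all 11635 genes, 1368, 1367 and 1002 had an unadjusted p below 0.05 in these contrasts, in the same order. DESeq2 called 1 higher, 2 lower and 0 in these contrasts, and had 0 members at an unadjusted p below 0.05 for Y against ct. Over 29571 genes it called 47 higher for WT against ct and 65 lower for Y against WT. For Y against ct it called 23 genes higher and 51 lower, with 488 at an unadjusted p below 0.05. All WT libraries lay above all ct libraries for 17 members (7.62% of all genes) and below for 1 (8.62%), and all Y libraries lay below all WT libraries for 18 (8.75%) and above for 0 (8.54%). Y lay wholly below ct for 5 members (7.55%) and above for 1 (5.7%).

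These counts rested on single libraries. Without WT replicate 3, whose TMM factor of 0.783 lay below the 0.972 to 1.10 of the others, 0 members were called for WT against ct and 1 for Y against WT. Without ct replicate 1 the first count was also 0, and without ct replicate 2, ct replicate 3 or Y replicate 1 it was 1. The second count was 2 without WT replicate 1 or Y replicate 1, 1 without Y replicate 2 and 0 without Y replicate 3.

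**Figure D4:**
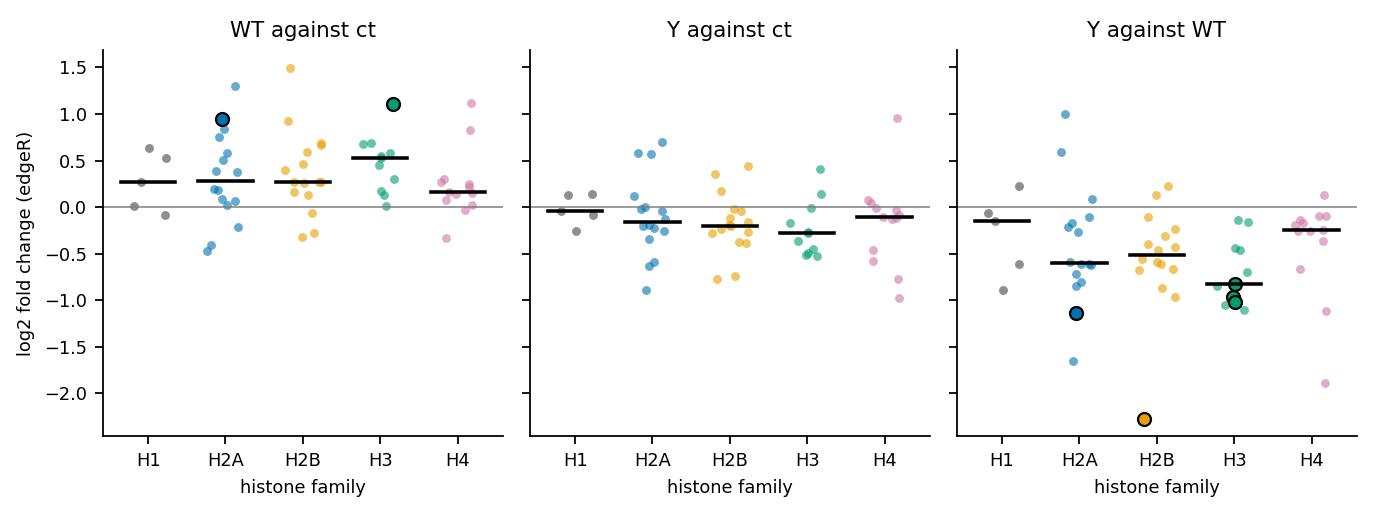
Log2 fold change from edgeR of each of the 61 PBMC members in the 3 contrasts, by family, with a bar for the family's median and outlined points for members with an adjusted p below 0.05. The H3 median is 0.53 for WT against ct and -0.83 for Y against WT, the farthest from 0 of the 5 families in both.

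The H3 family had the largest medians. For WT against ct all 11 H3 genes lay above 0, with a median of 0.53, and the other families had medians of 0.16 to 0.28. For Y against WT none of the 11 lay above 0, with a median of -0.83. The medians there were -0.60 for H2A, -0.51 for H2B, -0.24 for H4 and -0.15 for H1. Only 1 H3 gene was called in the first contrast and 3 in the second, and differences between families were not tested.

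Hist2h3b (H3c13) read 8.33, 11.2 and 9.01 CPM in ct, 15.6, 12.7 and 12.3 in WT, against 9.38, 5.86 and 5.81 in Y. WT lay above both other groups, which overlapped. Y was 1.02 lower than WT on the log2 scale, at -1.02 (SE 0.175, edgeR adjusted p = 0.00538), and WT against ct, at 0.53 (SE 0.158, edgeR adjusted p = 0.122), was not called.

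Hist1h2ap (H2ac24) read 2.97, 5.84 and 3.80 CPM in ct, 8.51, 6.08 and 9.19 in WT, against 3.27, 3.38 and 4.00 in Y. All WT libraries were above all others, the lowest only just above the highest ct library. It is the member called in both contrasts, with 0.94 for WT against ct (SE 0.221, edgeR adjusted p = 0.0319) and -1.14 for Y against WT (SE 0.235, edgeR adjusted p = 0.0230). DESeq2 gave adjusted p of 0.122 and 0.0437.

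Hist1h3h (H3c10) read 5.23, 2.70 and 6.76 CPM in ct, 8.62, 8.99 and 15.4 in WT, against 6.55, 5.60 and 7.87 in Y. WT was above both groups, with replicate 3 well above the other WT libraries, and ct and Y overlapped. WT against ct was 1.11 (SE 0.262, edgeR adjusted p = 0.0331), 0.82 without WT replicate 3 (edgeR adjusted p = 0.144), and Y against WT -0.69 (SE 0.257, edgeR adjusted p = 0.272).

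Hist1h3i (H3c11) read 9.63, 8.24 and 8.42 CPM in ct, 13.6, 10.3 and 14.8 in WT, against 9.82, 6.90 and 5.94 in Y, with all WT libraries above the rest. Y against WT was -0.83 (SE 0.174, edgeR adjusted p = 0.0259). Hist1h3b (H3c2) read 6.42, 5.69 and 3.91 in ct, 6.87, 6.71 and 8.48 in WT, against 3.05, 3.77 and 4.13 in Y. Here WT lay only a little above the highest ct library, and Y overlapped ct. Y against WT was -0.97 (SE 0.209, edgeR adjusted p = 0.0302), and with a replicate block it was not called (edgeR adjusted p = 0.0508). DESeq2 called neither gene, with adjusted p of 0.0702 and 0.0821.

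Hist1h2bk (H2bc12), the H2B gene with the octamer nearest to its start site of the 3 shown, had few counts. Its expected counts were 40.2, 30.8 and 24.6 in WT, against 18.1, 3.00 and 12.3 in the ct libraries and 6.67, 0 and 8.77 in the Y libraries. WT lay above both groups, and the Y libraries held too few counts for a firm fold change. edgeR gave -2.27 for Y against WT (SE 0.526, adjusted p = 0.0447), and leaving out any library of either group ended the call, with adjusted p of 0.0698 to 0.145.

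**Figure D5:**
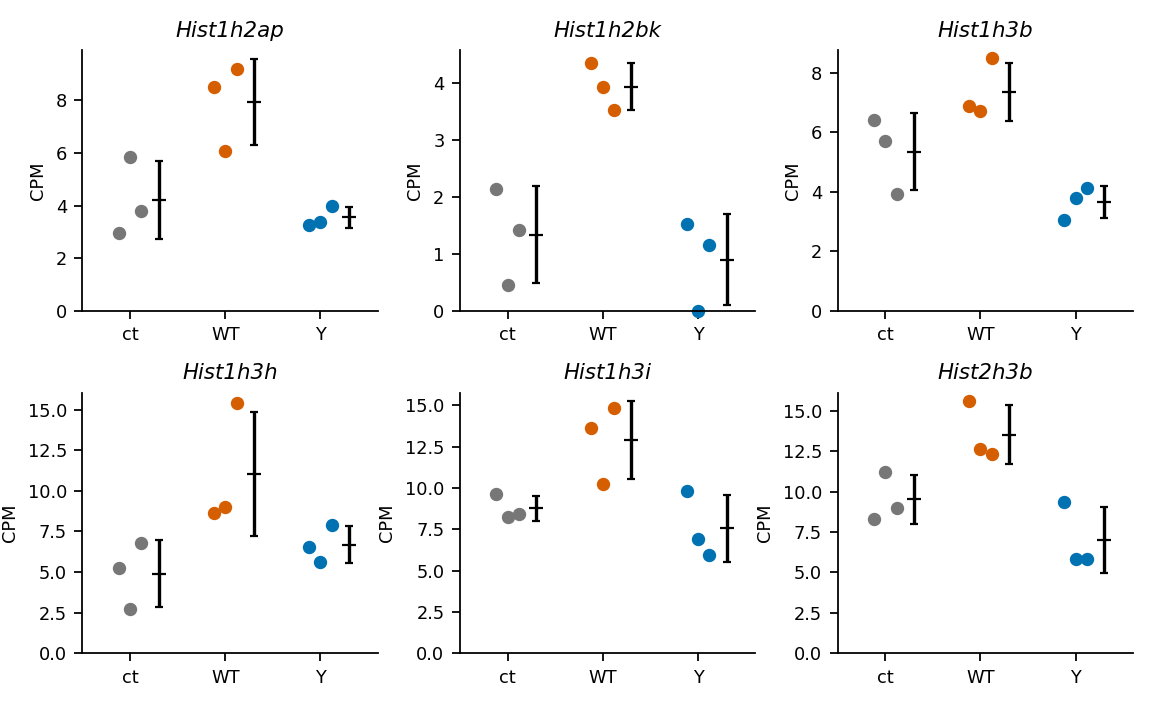
CPM of the 6 members called in a PBMC contrast, with 1 point per library for ct, WT and Y and a bar for the mean ± SD of 3 libraries, each panel on its own axis from 0. WT is highest for each of the 6 genes.

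Of the most abundant member of each family, Hist1h3i was called for Y against WT and the other 4 were called in no contrast. Hist1h1c read 57.8, 60.7 and 59.2 CPM in ct, 55.6, 58.1 and 65.7 in WT, against 57.4, 58.0 and 56.5 in Y, and the groups overlapped. Its fold change was 0.01 for WT against ct (SE 0.0835) and -0.06 for Y against WT (SE 0.0844). Hist2h2aa1 and Hist1h4n were at 0.19 (SE 0.103) and 0.02 (SE 0.141) for WT against ct. Hist2h2bb read 8.80, 5.84 and 9.01 CPM in ct, 10.04, 7.47 and 11.6 in WT, against 6.11, 6.64 and 5.55 in Y, with Y below WT throughout. Its fold change of -0.66 was not called (SE 0.193, edgeR adjusted p = 0.135).

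Members were also split by how far the annotated transcript runs past the stem-loop, since long forms can be polyadenylated. For Y against WT the median was -0.19 for 21 members annotated over 60 bases past it, with 0 called. It was -0.59 for 21 that end within 60 bases of it, with 3 called, and -0.63 for 19 with no annotated stem-loop, with 2 called. For WT against ct the medians were 0.16, 0.21 and 0.55. For HSPCs against lymphocytes on the protein-coding surface scale they were 1.43, 1.77 and 2.16, over 22 transcripts in each class. The differences between classes were not tested, and the classes differ in family and in read sharing.

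Of the companion lists, none of 13 genes for histone mRNA processing and transcription, 9 replication-independent variants and 6 chaperones was called in any PBMC contrast by edgeR, and 2, 1 and 1 of them had an unadjusted p below 0.05 for WT against ct. Slbp was at 0.40 for WT against ct (SE 0.134, edgeR adjusted p = 0.188). Of 18 genes of replication and division 1 was called. The list's median log2 fold change was 0.20 for WT against ct, with 14 of 18 above 0, and -0.16 for Y against WT, with 4 above 0, the same directions as the members' medians. For Y against ct it was 0.04, with 10 of 18 above 0, while the members' median was -0.16. The called gene Top2a, topoisomerase II alpha of dividing cells, was higher in Y, by 0.85 against ct (edgeR adjusted p = 0.0242) and by 1.09 against WT (edgeR adjusted p = 0.00349), the direction opposite to that of the called histone genes. The list summed to 107 to 108 CPM in ct, 118 to 121 in WT, against 117 to 122 in Y.

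Markers of several blood cells moved between the same groups. For WT against ct edgeR called 7 of 7 erythroid and 4 of 4 platelet markers lower, 2 of 5 NK markers (Ncr1 and Klrb1c) and 1 of 5 monocyte markers (Ly6c2) higher, and 2 neutrophil markers in each direction. NK markers summed to 40.3 to 43.6 CPM in ct, 52.8 to 54.2 in WT, against 40.4 to 43.6 in Y, and monocyte markers to 218 to 251, 257 to 274 and 214 to 231. WT was highest in both, as it was for the histone sum. For Y against WT 4 of 6 neutrophil markers were called higher and 2 of 5 monocyte markers lower, and neutrophil markers summed to 208 to 220 CPM in Y against 74.4 to 92.4 in the others. For Y against ct 5 of 6 neutrophil markers were called higher, and 6 of 7 erythroid and 2 of 4 platelet markers lower. No B or T cell marker was called in any contrast. The part of these cells in the histone differences was not tested.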

How the data were processed

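Surface RNA tables hold TPM per transcript, which the authors computed with Kallisto after trimming. The transcript set is not given in the sources used here, and depth is unknown. PBMC tables hold expected counts and TPM per gene that the authors deposited from RSEM, with Trim Galore, STAR and mm10 named in the labels' processing notes. Strand use is not stated. Groups came from the labels. Expected counts were rounded and fitted with edgeR 4.0.16 (TMM, filterByExpr, quasi-likelihood) in R 4.3.3, all 9 libraries in 1 fit. Surface values were fitted with limma 3.58.1 on log2(TPM + 1) over all 15 libraries, for transcripts listed in all 5 tables and above 10 TPM in at least 3 libraries. The protein-coding scale repeats this after rescaling protein-coding transcripts to a sum of 1000000. Calls have a Benjamini-Hochberg adjusted p below 0.05 over all features tested. Scripts used Python 3.11.15, and fits were tested on simulated data. Alternatives were DESeq2 1.42.0, other filters, pseudocounts and scales, a replicate block, and leaving out each library.

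Members and lists were chosen with earlier results of these data known. Named members are those called in PBMCs, the highest of each family, the 10 highest on the surface, and the 3 largest and 3 smallest called differences per surface contrast in TPM; other members are named as exceptions. Between libraries of a group no copies were found.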

Additional observations from a re-analysis of the deposited data

How the results depend on the processing

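PBMC counts of called members moved with the tool and filter: WT against ct higher was 2, 1 with DESeq2 and 7 with no filter on counts, and Y against WT lower was 5, 2 with DESeq2 and 11 with no filter. Surface counts moved with the scale. Leaving rRNA and 3 miRNA transcripts out of TPM gave 60 higher and 0 lower for HSPCs, 1 higher for B cells and 7 lower for NK cells. On the protein-coding scale HSPCs had 59 higher and 0 lower, NK cells 18 higher and 0 lower, monocytes 40 higher and 2 lower, and B cells 1 higher. With no filter B cells and NK cells had 1 higher each in TPM and monocytes 0 lower on the protein-coding scale, and with a pseudocount of 0.1 NK cells had 2 lower and HSPCs 0 lower. With transcripts above 50 TPM in 1 library NK cells had 0 lower and HSPCs 1 lower. Signs turned for H2ac23 in HSPCs (0.29 without rRNA, 1.6 on the protein-coding scale), H2bc22 (0.72 and 0.38), H2bc27 (0.56 and 0.21), H1f0 (0.84 and 1.35), H2bc6 (1.01 and 0.38), H4c14 in monocytes (-0.44) and H2ac21 in T cells (0.25). The cause was not tested.

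Replicate numbers were not taken as pairs, since not every same-numbered pair correlated above 0.1: deviations of same-numbered libraries correlated at -0.06 to 0.06 in PBMCs and -0.35 to 0.52 on the surface, and 2 of 9 and 10 of 15 libraries correlated best with their own number, on the surface a hint from the data and not from the design. With the replicate block NK cells had 1 member higher, monocytes 1 lower on the protein-coding scale, and Hist1h3b was not called (edgeR adjusted p = 0.0508).

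Leaving out 1 library at a time gave 0 to 3 members higher for WT against ct and 0 to 6 lower for Y against WT. On TPM it gave 48 to 62 lower in B cells, 51 to 62 lower in T cells, 0 to 2 higher and 0 to 10 lower in NK cells, 7 to 20 higher and 0 to 5 lower in HSPCs, 51 to 62 higher in monocytes and 44 to 56 higher in HSPCs against lymphocytes. On the protein-coding scale, where these fits were chosen after seeing the data, it gave 0 to 1 higher and 55 to 60 lower in B cells and 0 to 1 higher (without B cell replicate 1) and 38 to 50 lower in T cells. NK cells had 2 to 25 higher and 0 to 1 lower, HSPCs 54 to 61 higher, monocytes 29 to 46 higher and 0 to 5 lower, and HSPCs against lymphocytes 56 to 63 higher. Depth limits the PBMC members with few counts, such as Hist1h2bk.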
